A study of Rattus norvegicus with 64 samples.

Results

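The transcripts described here are those of the cytosolic ribosomal proteins in rat whole blood, taken as every gene whose symbol in the count files begins with Rpl or Rps, without the Rps6k kinases, and which is listed in every file used. This gave 112 identifiers under 90 symbols, of 145 such identifiers in any file and of 17366 genes listed in all files used (26405 genes in any file). Of the 112 identifiers, 108 passed the filter on low counts (at least 10 counts in at least 4 rats) and entered the tests among 13404 genes. The 4 identifiers that did not pass were RPS4X:ENSRNOG00000003201, Rps19l1, Rpl12-ps1 and Rpl31l20. A total of 91 identifiers had a mean of at least 1000 normalized counts and are called the core members below.

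The rats were male Sprague-Dawley animals from Charles River, 85 to 90 days old, and every rat received 4 injections with 2 h between them. The saline 39 C group received saline in a hot environment and became hyperthermic from the environment. The study lists hyperthermia among its neurotoxic exposures. The saline 16 C group received saline in a cool environment. The AMPH 16 C group, labelled normothermic, received amphetamine in a cool environment. The study names a non-neurotoxic amphetamine exposure without giving its environment, and it is taken here to be this group. The saline 22.5 C rats, given saline at room temperature, are part of the study's saline controls and serve here as a further reference. The paper first sequenced its last control group with a poor PCR reagent, which disturbed the ribosomal transcripts, and then sequenced it again. No label says whether the saline 22.5 C rats are that group or which sequencing their counts come from. Another group, AMPH 22.5 C, received amphetamine at room temperature and is labelled hyperthermic, which the study treats as its neurotoxic exposure. It is not among the 4 groups compared here and was added only to the fits over 5 groups with the project as a covariate. How many of its rats entered those fits is not given here. No label gives the amphetamine dose at 16 C or the body temperature of a rat. Blood was drawn from the heart 3 h after the last injection, globin mRNA was depleted, and polyadenylated RNA was sequenced. Of 42 rats in the 4 groups, 37 had at most 5000 counts of the myoglobin gene Mb, the study's limit on heart muscle carried into the blood: 15 saline 39 C, 13 AMPH 16 C, 5 saline 16 C and 4 saline 22.5 C rats.

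Ribosomal proteins are the protein part of the small and the large ribosomal subunit, and nearly all are present as a single copy in each ribosome. Their mRNAs are among the most abundant in most cells. Most start with a run of pyrimidines directly at the cap, the terminal oligopyrimidine or TOP motif, through which the kinase mTOR and the RNA-binding protein Larp1 control how strongly the mRNAs are translated and how long they last. In blood, lymphocytes hold many of these mRNAs, neutrophils hold few, and reticulocytes keep part of them while they still carry out translation. Whole blood was measured in bulk, so fewer cells of a type and less RNA per cell cannot be told apart.

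The start-site windows are shown because many of these genes, though not all, hold a pyrimidine run near the annotated start. Each window holds 10 bases before and 20 bases after the start annotated in RefSeq (rat assembly GRCr8, not the build of the count files), read 5′ to 3′ on the strand of the gene, with the longest run of C and T in capitals. The first lines are members with large differences between hot saline and cool amphetamine rats, then members singled out for their role, and the last are a paralog and a binding partner that share the name and have short runs.
Rpl37 (chr2:55942935-55942964, + strand): ggcgtaCTTTCTCTTCCggtctctttggcc
Rpl37a (chr9:81748081-81748110, + strand): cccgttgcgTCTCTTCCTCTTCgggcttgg
Rpl35 (chr3:43165902-43165931, - strand): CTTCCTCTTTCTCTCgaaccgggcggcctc
Rps15 (chr7:10068096-10068125, - strand): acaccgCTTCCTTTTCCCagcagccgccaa
Rplp0 (chr12:46718371-46718400, - strand): caccgcaCTTCTCTCgccaggcgtcctcat
Rpl41 (chr7:1563478-1563507, - strand): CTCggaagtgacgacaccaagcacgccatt
Rpl3 (chr7:113507971-113508000, - strand): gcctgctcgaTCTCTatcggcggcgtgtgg
Rpl5 (chr14:1995206-1995235, - strand): CTTTCCCacgtcgcttgcgtcctggaggtg
Rpl22l1 (chr2:113683186-113683215, + strand): gtggatatccggTTCCgagttgcgcagcgc
Rps19bp1 (chr7:113693004-113693033, - strand): tgtgggcggggCTTggcagcatgtcggcgg

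A window was found for 66 of the 90 symbols. Among the 65 with 1 window, 61.5% held a run of at least 8 C or T letters in a row, against 10.5% of the windows of 24206 genes. A run of at least 5 was present in 80% of the members and in 43.6% of all genes. On the opposite strand a run of at least 8 was present in 1.54% of the members and 13.0% of all genes. The median longest run was 9 letters in the members and 4 letters in all genes. The runs in the windows above were 15 letters in Rpl35, 13 in Rpl37a, 12 in Rps15, 11 in Rpl37, 8 in Rplp0, 7 in Rpl5, 5 in Rpl3, 4 in Rpl22l1 and 3 in Rpl41 and Rps19bp1. Bases before the annotated start are not part of the annotated mRNA. The runs of Rpl5 and Rpl41 lie wholly before that start, and those of Rpl35, Rpl37a, Rps15, Rpl37 and Rplp0 begin before it and extend past it. A run in this window is a property of the annotated start and was not tied to a measured start in blood.

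The libraries of the kept rats held 21348745 to 39025229 counts. Each file name carries a code, called a project here, and the labels do not say what it marks. The 37 rats fell in 12 projects. All 5 saline 16 C rats were in 1 project, together with 1 saline 39 C and 1 AMPH 16 C rat, and the saline 22.5 C rats were in 2 projects that held none of the other groups compared here. The spread between rats of a group was large, with a biological coefficient of variation of 0.443 over all genes. No pair of rats had identical counts. Normalization by the trimmed mean of M values (TMM) gave factors from 0.417 to 1.65 in the saline 39 C rats, 0.846 to 1.47 in the AMPH 16 C rats, 1.02 to 1.2 in the saline 16 C rats and 1.35 to 1.74 in the saline 22.5 C rats. Rats 6, 8, 13, 15 and 16 of the saline 39 C group, from 4 projects, had factors under 0.65. A low factor raises every normalized value of that rat by construction, so the factor and the level of the ribosomal protein transcripts are linked by arithmetic, and the counts of members called in each comparison with saline 39 C rats are given below with and without these rats. The limit of 0.65 was chosen after the data were seen, and these 5 rats are not a group of the study.

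Read from the counts as deposited, ribosomal protein transcripts took between 4.79% and 9.41% of the blood transcriptome of a kept rat. In the saline 16 C rats the share was 7.31%, 6.76%, 8.02%, 7.01% and 7.33% of the counts (7.29% ± 0.471, SD, n = 5). In the AMPH 16 C rats it was lowest at 4.95%, with a median of 5.89% and a highest of 8.42% (6.01% ± 0.865, SD, n = 13). In the saline 39 C rats it was lowest at 4.79%, with a median of 6.41% and a highest of 9.41% (6.37% ± 1.22, SD, n = 15). The 3 groups overlapped, and the hot rats reached both below and above the others. In the saline 22.5 C rats it was 7.72%, 7.64%, 6.22% and 8.39% (7.49% ± 0.913, SD, n = 4). Outside the hemoglobin genes, the mean share was 7.38% in saline 39 C, 6.65% in AMPH 16 C, 7.89% in saline 16 C and 8.23% in saline 22.5 C rats.

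After TMM normalization the level spread most among the hot rats. The core level of a rat is the median, over the 91 core members, of the log2 normalized CPM (counts scaled to a common library size) minus the mean of that member over all rats. It was lowest at -0.71, with a median of -0.02 and a highest of 1.68 in saline 39 C rats (mean 0.17 ± 0.63, SD, n = 15). It ran from -0.46 to 0.47 with a median of -0.18 in AMPH 16 C rats (mean -0.14 ± 0.27, SD, n = 13). It was 0.14, -0.19, 0.34, -0.03 and 0.07 in the saline 16 C rats and -0.38, -0.08, -0.42 and 0.04 in the saline 22.5 C rats. The 5 hot rats with low factors lay between 0.40 and 1.68, above the other 10 hot rats, which lay between -0.71 and 0.26. In the share of counts, which does not use the factor, the same 5 rats overlapped the other 10, with 5.35% to 9.41% against 4.79% to 7.74%.

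**Figure D1:**
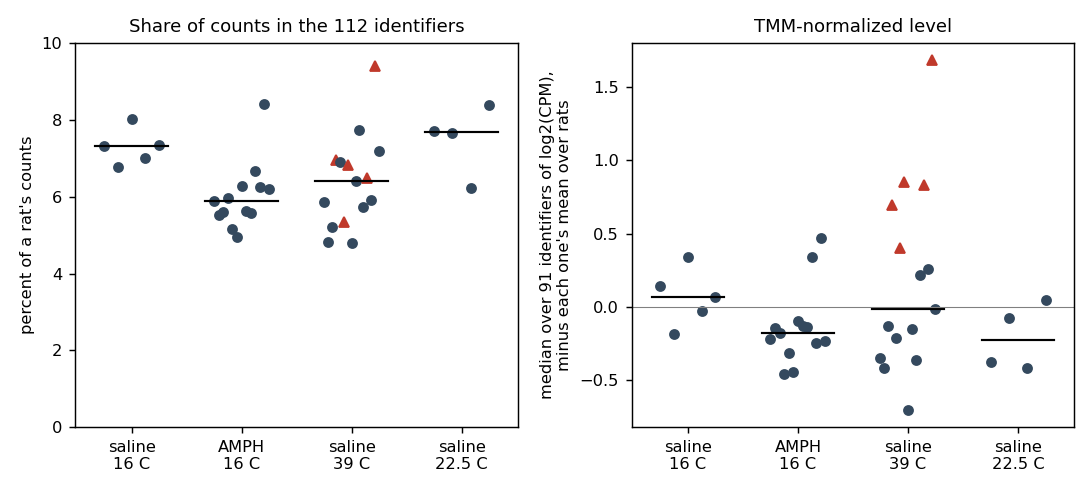
The left panel plots the percent of the counts of each rat that fell in the 112 ribosomal protein identifiers and the right panel plots the TMM-normalized core level (log2), with 1 point per rat, the groups on the horizontal axis, lines for group medians and triangles for the 5 saline 39 C rats with TMM factors under 0.65. In the left panel the triangles, at 5.35% to 9.41%, overlap the other hot rats, and in the right panel they lie between 0.40 and 1.68, above the other hot rats.

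Markers of blood cell types differed between the groups. The summed T cell markers (lymphocytes that hold many ribosomal protein mRNAs) ran from 57.2 to 302 CPM in saline 39 C rats, from 139 to 303 CPM in AMPH 16 C rats, from 236 to 312 CPM in saline 16 C rats and from 311 to 451 CPM in saline 22.5 C rats. B cell markers had medians of 232, 163, 369 and 409 CPM in the same order, so they were lowest in AMPH 16 C rats. Natural killer cell markers had medians of 122, 186, 188 and 232 CPM and monocyte markers of 14706, 13322, 9653 and 6296 CPM. Reticulocyte markers, mostly hemoglobin, had medians of 142744, 110818, 89403 and 76326 CPM in the same order. Those outside hemoglobin were mixed. Alas2 had medians of 8911, 10675, 10929 and 7676 CPM and Slc4a1 of 1276, 1952, 1328 and 1224 CPM. Ahsp had 2056, 2227, 1877 and 1302 CPM, and only Epb42 followed the sum, with 453, 344, 271 and 213 CPM. Neutrophil markers, mostly S100a9 and S100a8, had medians of 6825, 14605, 20423 and 4439 CPM. In the 5 hot rats with low factors, hemoglobin took 12.9% to 33.3% of the counts against 2.78% to 17.7% in the other 10, and the 10 most abundant genes of a rat took 37.1% to 47.0% against 18.5% to 40.1%. Normalized CPM of the 5 rats are raised by their low factors by construction, so marker CPM cannot show whether a cell type differed in them. Platelet markers ran from 3148 to 8965 CPM in the 5 rats against 1853 to 4413 CPM in the other 10, and T cell markers from 58.5 to 165 CPM against 57.2 to 302 CPM. The part of these cell types in the results below was not tested.

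The comparison of saline 39 C with AMPH 16 C rats sets the largest groups side by side, and they share 5 projects. They differ in both drug and environment, so the part of each cannot be told apart. A member said to rise in this comparison was higher in the hot saline rats than in the cool amphetamine rats. Of 108 members, 36 were higher in the hot rats and 0 were lower, where 17.7% of all 13404 genes were higher and 13.5% were lower (edgeR quasi-likelihood test, Benjamini-Hochberg adjusted p below 0.05). At an unadjusted p below 0.05, 48 members were higher and 0 lower, against 23.9% and 17.9% of all genes, and DESeq2 called 43 of 112 higher and 0 lower, against 16.4% and 10.6% of the genes it tested. The median log2 difference was 0.37 over the members and 0.05 over all genes, and 91 members lay above 0. Both subunits were represented, with 22 of 60 large subunit and 14 of 48 small subunit identifiers called. All 36 were core members.

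Large subunit members are given first. Rpl37, a small zinc-binding protein (ENSRNOG00000012538), had 854 CPM in the lowest, 1564 CPM in the median and 7122 CPM in the highest saline 39 C rat, against 711.9, 1149 and 1913 CPM in AMPH 16 C rats. The difference was 0.97 on the log2 scale (SE 0.252, edgeR adjusted p = 0.00365). The highest hot rat lay far above every cool rat, but the low and middle values of the groups overlapped.

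Rpl41, which encodes the smallest ribosomal protein, had the highest mean normalized count of all members in each of the 4 groups. It had 1560, 3893 and 12394 CPM in the lowest, median and highest saline 39 C rat and 1310, 2763 and 5140 CPM in AMPH 16 C rats, with a difference of 0.84 (log2, SE 0.257, edgeR adjusted p = 0.0119). Again the groups overlapped and the upper end of the hot group stood out. Rpl35, a protein next to the exit of the peptide tunnel, differed by 0.79 (log2, SE 0.24, edgeR adjusted p = 0.0114), and Rpl37a (ENSRNOG00000023385), another zinc-binding protein, by 0.81 (log2, SE 0.235, edgeR adjusted p = 0.00839).

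The stalk proteins, which recruit translation factors to the ribosome, rose together. Rplp0, the base of the stalk, had 1834, 2911 and 11514 CPM in the lowest, median and highest saline 39 C rat and 1678, 2453 and 3227 CPM in AMPH 16 C rats. The difference was 0.76 (log2, SE 0.209, edgeR adjusted p = 0.0058). Its partners Rplp1 and Rplp2 rose by 0.79 (SE 0.239, edgeR adjusted p = 0.0117) and 0.82 (SE 0.216, edgeR adjusted p = 0.00384) on the log2 scale. Rplp2 reached 2588 CPM in the highest hot rat, while no AMPH 16 C rat was above 673 CPM.

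In the small subunit, Rps15 of the head of the subunit rose by 0.81 (log2, SE 0.204, edgeR adjusted p = 0.00278). It had 480, 948 and 3071 CPM in the lowest, median and highest saline 39 C rat against 368, 719 and 851 CPM in AMPH 16 C rats, so the hot median lay above every AMPH 16 C rat. The median of the saline 16 C rats, whose values are given further below, also lay above every AMPH 16 C rat, and their highest lay above the hot median. Rps12 rose by 0.82 (log2, edgeR adjusted p = 0.00833), and the Rps10 copy Rps10l1 by 0.87 (log2, edgeR adjusted p = 0.00764). Rps27a, made as a fusion with ubiquitin, rose by 0.73 (edgeR adjusted p = 0.0121), and Rps29 (ENSRNOG00000004196), a small zinc-binding protein, by 0.70 (edgeR adjusted p = 0.0296). Rps14 (0.71), Rpsa (0.59) and Rps19 (0.57) rose as well, of which Rps14 and Rps19 are known for their loss in inherited or acquired anemias.

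Of the members singled out for their role, some passed the test and some did not. Rpl11 and Rpl5 bind 5S rRNA together and can hold back the p53 ligase Mdm2. Rpl11 rose by 0.65 (log2, SE 0.2, edgeR adjusted p = 0.0134), and Rpl5 had a difference of -0.13 (SE 0.145, edgeR adjusted p = 0.521), and the difference between the 2 genes was not tested. Rpl5 had 363, 538 and 996 CPM in the lowest, median and highest saline 39 C rat and 394, 557 and 1131 CPM in AMPH 16 C rats, which overlapped almost completely. Rps6, the substrate of the S6 kinases, had a difference of -0.05 in 1 of its 2 identifiers (log2, SE 0.158, edgeR adjusted p = 0.831). Their sum differed by 0.03 (SE 0.149, edgeR adjusted p = 0.895). Rpl3, which reaches to the peptidyl transferase centre, had a difference of -0.25 (log2, SE 0.127, edgeR adjusted p = 0.139). Rpl4, Rpl7, Rpl22 and Rps4x had differences of 0.34, 0.40, 0.36 and 0.40 (log2) and adjusted p-values between 0.102 and 0.173.

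**Figure D2:**
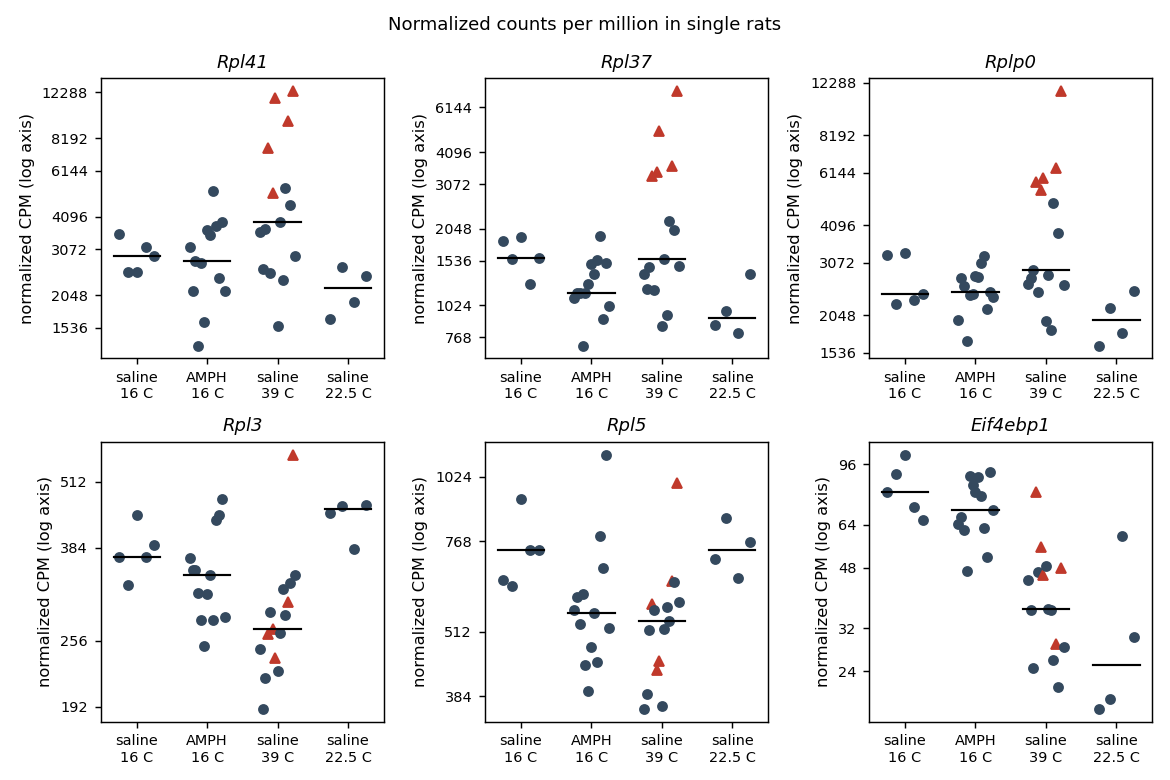
Normalized CPM (log axis) of Rpl41, Rpl37, Rplp0, Rpl3, Rpl5 and the translation repressor Eif4ebp1, with 1 point per rat, the groups on the horizontal axis, lines for group medians and triangles for the 5 saline 39 C rats with TMM factors under 0.65. The triangles carry the upper end of Rpl41, Rpl37 and Rplp0 in the hot group, up to 12394, 7122 and 11514 CPM, while Rpl3 in the hot rats stays between 190 and 577 CPM.

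None of these calls remained when the 5 hot rats with low factors were left out. Part of this loss was built in, because these rats were chosen by a factor that raises all their normalized values. What caused the loss was not tested. Without the 5 rats, 1 member was higher and 3 were lower, where 17.6% of all genes were higher and 11.8% lower, and the median over the members was -0.05 against 0.06 over all genes. Rpl37 then differed by 0.21 (log2, edgeR adjusted p = 0.354), Rpl41 by 0.18 (adjusted p = 0.54), Rplp0 by 0.21 (adjusted p = 0.286) and Rps15 by 0.28 (adjusted p = 0.144). Rplp1 differed by 0.09, Rplp2 by 0.23, Rps12 by 0.10 and Rps10l1 by 0.13, with adjusted p-values of 0.246 or more. The member called higher was Rpl7l1, a nucleolar relative of Rpl7 (0.29, adjusted p = 0.0478), and those called lower were Rpl3 (-0.33, adjusted p = 0.0319) and both Rps9 identifiers, a protein of the small subunit body (-0.61, adjusted p = 0.0162, and -0.59, adjusted p = 0.0147). Leaving out hot rat 8 alone lowered the count from 36 to 21 higher with 1 lower and the median to 0.25. The share of all genes called without that rat is not given.

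Fits that took the project into account also called fewer members, but they changed the rats or groups as well, and the part of the project alone was not tested. With the project as a covariate in a fit over 5 groups (AMPH 22.5 C rats added, 14000 genes, 109 members), 0 members were higher and 0 lower by edgeR, where 7.22% of all genes were higher and 7.09% lower. At an unadjusted p below 0.05, 6 members were higher and 1 lower in that fit, for which DESeq2 was not run. The median over the members was 0.09 (log2). Rpl37 differed by 0.57 (edgeR adjusted p = 0.157), Rplp2 by 0.57 (adjusted p = 0.102) and Rplp0 by 0.46 (adjusted p = 0.177) in it. Among the 7 saline 39 C and 10 AMPH 16 C rats from the 5 projects that held both groups, 0 members were higher and 0 lower by edgeR (0 and 1 at an unadjusted p below 0.05, DESeq2 not run), against 6.92% and 5.59% of all genes, with a median of 0.05. With counts scaled to the library total alone, 3 members were higher (Rpl37, Rps15 and Rplp0) and 3 lower (Rpl3 and both Rps9 identifiers), against 5.25% and 13.5% of all genes, and the median was -0.04 where that of all genes moved to -0.18.

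**Figure D3:**
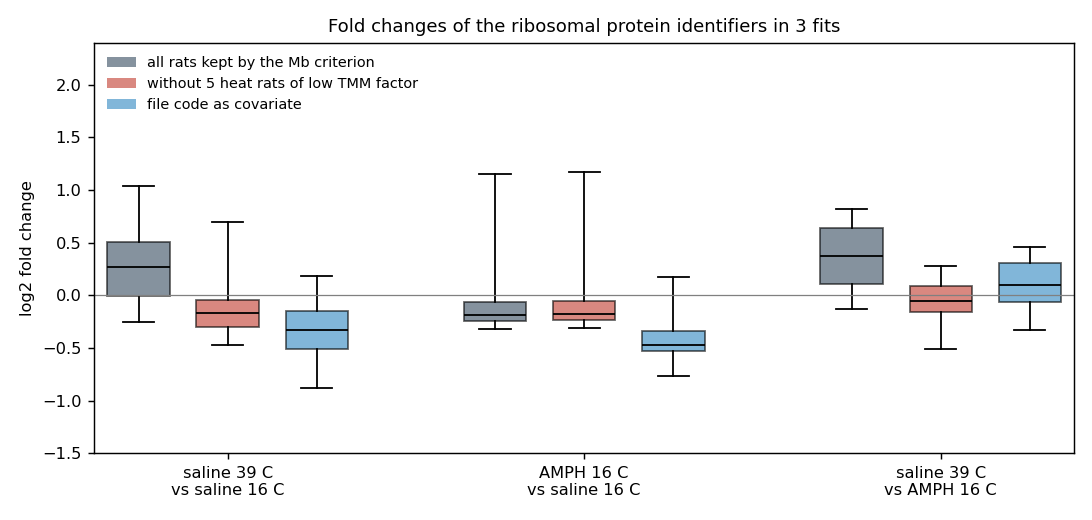
Box plots of the log2 fold changes of the members in 3 comparisons under 3 fits (all rats kept, without the 5 saline 39 C rats with low TMM factors, and with the project as a covariate and the AMPH 22.5 C rats added), with boxes at the quartiles, lines at the medians and whiskers from the 5th to the 95th percentile. Between saline 39 C and AMPH 16 C rats the median falls from 0.37 to -0.05 without the 5 rats and to 0.09 with the project, and between saline 39 C and saline 16 C rats from 0.27 to -0.17 and to -0.33.

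The comparison of saline 39 C with saline 16 C rats sets a hot against a cool environment without a drug. All 5 saline 16 C rats were in 1 project, which held 1 hot rat, so environment and project can hardly be told apart. Of 108 members, 3 were higher in the hot rats and 0 were lower, where 12.4% of all genes were higher and 9.91% lower (edgeR, adjusted p below 0.05). At an unadjusted p below 0.05, 13 were higher and 2 lower, against 20.1% and 16.1% of all genes, and DESeq2 called 8 of 112 higher and 0 lower, against 12.8% and 7.71% of the genes it tested. The median log2 difference was 0.27 over the members and 0.06 over all genes, and 80 members lay above 0. The 3 members called each carry a symbol shared with other identifiers or a pseudogene name: Rpl36-ps3, RPS29:ENSRNOG00000028939 and Rps20:ENSRNOG00000029627.

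Of these, Rps20:ENSRNOG00000029627 held the most counts. It had 27.9, 282.6 and 979 CPM in the lowest, median and highest hot rat, and 174, 53.9, 149, 119 and 160 CPM in the saline 16 C rats. The difference was 1.52 (log2, SE 0.491, edgeR adjusted p = 0.0234), 0.84 (adjusted p = 0.143) without the 5 hot rats and -0.27 with the project as a covariate. Summed with the other Rps20 identifier, the symbol differed by 0.21 (log2, SE 0.292, edgeR adjusted p = 0.6255).

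RPS29:ENSRNOG00000028939 had 2.85, 15.1 and 68.1 CPM in the lowest, median and highest hot rat and 8.45, 5.40, 6.89, 6.51 and 2.80 CPM in the saline 16 C rats. It differed by 1.92 (log2, SE 0.554, edgeR adjusted p = 0.0122), which was 1.02 (adjusted p = 0.094) without the 5 hot rats and -0.48 with the project. The annotated pseudogene Rpl36-ps3 was at 0 in 4 saline 16 C rats and at 0.0758 CPM in 1, and had a median of 0.889 CPM and a highest of 4.01 CPM in the hot rats (edgeR adjusted p = 0.00827). Its level followed the project as well, with at most 0.121 CPM in the rats of 5 projects and 0.389 to 4.01 CPM in all others.

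Abundant members overlapped between hot and cool saline rats and did not pass the test. Rpl41 had 3522, 2513, 2509, 3125 and 2880 CPM in the saline 16 C rats, within the range of 1560 to 12394 CPM of the hot rats (difference 0.85, log2, SE 0.364, edgeR adjusted p = 0.0859). Rpl37 had 1837, 1557, 1910, 1243 and 1580 CPM at 16 C (difference 0.59, SE 0.35, edgeR adjusted p = 0.22). Rplp0 had 3272, 2243, 3312, 2315 and 2421 CPM at 16 C (difference 0.64, SE 0.293, edgeR adjusted p = 0.109). The cool rats lay inside the range of the hot rats for all 3 members, and below each of the 5 hot rats with low factors.

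Rpl3 and Rpl5 pointed down. Rpl3 had 368, 327, 444, 370 and 389 CPM in the saline 16 C rats against 190, 269 and 577 CPM in the lowest, median and highest hot rat (difference -0.38, log2, SE 0.169, edgeR adjusted p = 0.0965). Rpl5 had 645, 630, 926, 739 and 738 CPM in the saline 16 C rats and 363, 538 and 996 CPM in the hot rats (difference -0.44, SE 0.193, edgeR adjusted p = 0.0968). For both, the median of the hot rats lay below every saline 16 C rat, although single hot rats lay above.

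Without the 5 hot rats with low factors, 6 members were lower and 1 was higher than in saline 16 C rats, against 8.59% and 14.1% of all genes, and the median over the members was -0.17. Those lower were Rpl36a (-0.53, adjusted p = 0.0183), Rpl5 (-0.51, adjusted p = 0.0417), Rpl34:ENSRNOG00000016387 (-0.47, adjusted p = 0.0299), Rpl3 (-0.45, adjusted p = 0.0261), Rps7 (-0.43, adjusted p = 0.0459) and Rps26 (-0.43, adjusted p = 0.0435), all on the log2 scale. The 1 higher was Rpl36-ps3. With the project as a covariate, Rpl5 was lower (-0.92, edgeR adjusted p = 0.0218) and no member was higher, against 2.64% and 6.11% of all genes, with a median of -0.33 over the members. That fit ties the saline 16 C rats to the other groups only through the other rats of their project. Among these is hot rat 2, which had the lowest core level (-0.71) and the lowest share of counts (4.79%) of all kept rats. With counts scaled to the library total, 2 members were higher and 12 lower, against 3.43% and 9.31% of all genes, with a median of -0.28 where that of all genes moved to -0.25. The sign of the median differed between these fits. Only 1 hot rat shared the project of the saline 16 C rats, and there the members had a median of -0.77 (log2, 1 rat against 5). That fit takes the lone rat to vary like the others, so its calls are not given.

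The comparison of AMPH 16 C with saline 16 C rats sets amphetamine against saline in a cool environment. All 5 saline 16 C rats were in 1 project, which held 1 AMPH 16 C rat, so drug and project can hardly be told apart. No member was called, with 0 higher and 0 lower of 108, and in all 13404 genes 0% were higher and 0.0149% lower (edgeR, adjusted p below 0.05). At an unadjusted p below 0.05, 6 members were higher and 0 lower, against 4.89% and 4.18% of all genes, and DESeq2 called 0 in each direction, against 0.226% and 0.116% of the genes it tested. The median log2 difference was -0.19 over the members and 0.02 over all genes, and 88 members lay below 0.

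In the fit without the project, most single members differed little between the cool groups, though with 5 saline rats the lack of calls does not show that they were equal. Rpl41 had 1310, 2763 and 5140 CPM in the lowest, median and highest AMPH 16 C rat, around the 2509 to 3522 CPM of the saline 16 C rats (difference 0.01, log2, edgeR adjusted p = 0.998). Rplp0 differed by -0.12 (adjusted p = 0.929), Rpl37 by -0.38 (adjusted p = 0.772), Rpl3 by -0.14 (adjusted p = 0.847) and Rpl5 by -0.31 (adjusted p = 0.681) on the log2 scale. Of the 108 members, 97 had a difference below 0.5 in size. The largest were low or split copies: Rpl36-ps3, at 0 in most saline 16 C rats (adjusted p = 0.357), and the Rps20 identifiers, ENSRNOG00000008555 with -1.60 (adjusted p = 0.637) and ENSRNOG00000029627 with 1.14 (adjusted p = 0.492). The median was -0.17 in the fit without the 5 hot rats, which enter only through the shared spread and scaling, -0.47 with the project and -0.28 with counts scaled to the library total, and 0 members were called in each of these fits. With the project, 64 of the 108 members had a difference below 0.5 in size, and 101 lay below 0. All genes gave 0.0225% higher and 0.0374% lower without the 5 hot rats, 0% and 0% with the project, and 0% and 0.00746% with the library total. A single AMPH 16 C rat shared the project of the saline 16 C rats, and between it and those 5 rats the median over the members was -0.40.

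Against the saline 22.5 C rats, 23 members were higher and 1 was lower in saline 39 C rats, where 14.7% of all genes were higher and 15.6% lower (edgeR). The single lower member was Rpl3 (-0.59, log2, edgeR adjusted p = 0.014), with 447, 462, 382 and 463 CPM in the saline 22.5 C rats. Without the 5 hot rats 3 were higher and 4 lower, against 12.4% and 11.1% of all genes, and with counts scaled to the library total 0 were higher and 45 lower, against 3.04% and 41.2%. With the project as a covariate 0 members were higher and 0 lower by edgeR (11 and 5 at an unadjusted p below 0.05), against 1.94% and 0.929% of all genes. These groups share no project, so environment and project cannot be told apart. Whether the saline 22.5 C counts come from the disturbed sequencing that the paper describes is not known. Without saline 22.5 C rat 17 the 23 members called higher became 3, and without rat 18 or rat 19 they became 8. Shares of all genes are not given for these fits.

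Between saline 16 C and saline 22.5 C rats, 0 members were higher and 0 lower, against 0.0746% and 0% of all genes (edgeR). At an unadjusted p below 0.05, 3 were higher and 2 lower, against 6.71% and 6.74% of all genes, and DESeq2 called 0 in each direction, against 0.911% and 0.221% of the genes it tested. The groups did not overlap in 8 members that were higher in the cool rats and in 1 that was lower, against 2.74% and 4.84% of all genes. Rps15 was among the 8, with 938, 860, 959, 761 and 817 CPM at 16 C and 389, 583, 472 and 629 CPM at 22.5 C (0.74, log2, edgeR adjusted p = 0.365). With the project as a covariate 0 were higher and 0 lower by edgeR (7 and 1 at an unadjusted p below 0.05), against 0% and 0.00714% of all genes. These groups share no project either.

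Members were also compared relative to the set, a scaling that by construction puts some above and others below its mean. When each rat was scaled to the geometric mean of its core members, a choice made after the data were seen, 6 members were higher and 10 lower in saline 39 C than in AMPH 16 C rats, against 5.32% and 13.5% of all genes (edgeR). Of the 108 members, these counts lay near and below those shares. Relative to the set, Rpl37 was higher by 0.43 (log2, adjusted p = 0.00791), Rps15 by 0.33 (adjusted p = 0.00941) and Rplp0 by 0.27 (adjusted p = 0.0314). Rpl3 was lower by 0.54 (adjusted p = 0.00417), Rpl5 by 0.41 (adjusted p = 0.0281) and 1 Rps6 identifier by 0.36 (adjusted p = 0.0331), and both Rps9 identifiers by 0.62 and 0.61. The level of Rpl3 relative to the mean of the core members was -0.89 ± 0.46 in saline 39 C, -0.30 ± 0.23 in AMPH 16 C and -0.37 ± 0.08 in saline 16 C rats (log2, SD). That of Rpl5 was 0.01 ± 0.43, 0.45 ± 0.30 and 0.57 ± 0.16. With the project added to this scaling 0 members were called in each direction by edgeR (10 higher and 12 lower at an unadjusted p below 0.05), against 1.62% and 3.69% of all genes, and Rpl3 had a difference of -0.47 (adjusted p = 0.0874). Against saline 16 C rats, 6 members were higher and 0 lower with this scaling, against 5.3% and 2.59% of all genes. They were Rpl10 (0.39), Rplp0 (0.39, adjusted p = 0.045) and Rps2 (0.49, adjusted p = 0.0376) with the 3 members called before this scaling. Against saline 22.5 C rats, 21 were higher and 14 lower with this scaling, against 4.77% and 11.8% of all genes.

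Several symbols were counted under more than 1 identifier, and the split of counts between the copies differed widely between projects. For Rps20, a protein of the small subunit head, ENSRNOG00000008555 took 68.1% to 92.6% of the symbol's counts in the 7 rats of the project that held the saline 16 C group, and 51.4% to 73.0% in the 5 rats of another. It took 0.0056% to 36.9% in the 5 rats of another project, which held AMPH 16 C and saline 39 C rats, and 1.48% to 19.5% in the 2 rats of a project that held only AMPH 16 C rats. In CPM, that identifier had 443, 482, 604 and 474 in saline 16 C rats 1 to 4 and 449 in rat 5, and 0.0343, 71.2 and 511 in the lowest, median and highest AMPH 16 C rat. The project and the treatment were not crossed in a balanced way, and the part of each in this split was not tested.

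**Figure D4:**
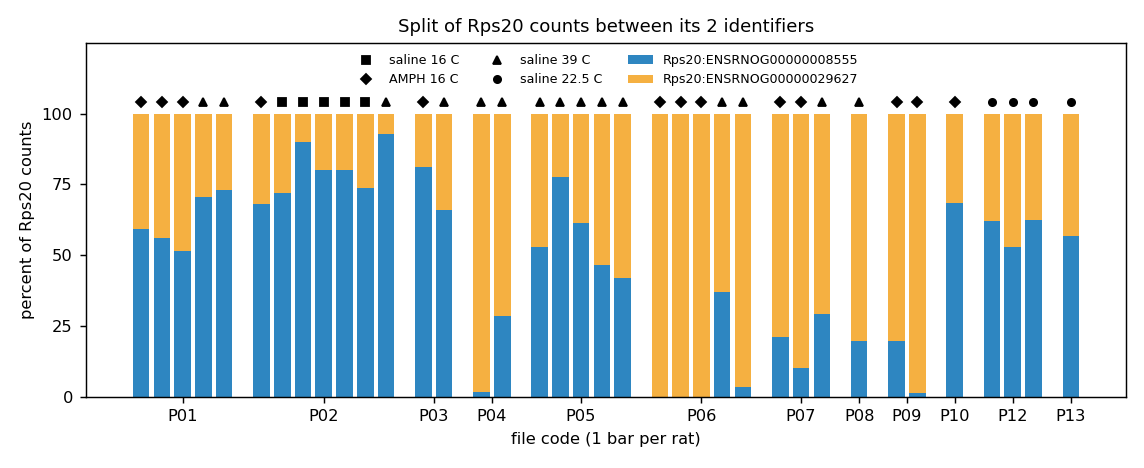
Stacked bars give the percent of the Rps20 counts of each rat that fell in ENSRNOG00000008555 and in ENSRNOG00000029627, with 1 bar per rat, bars grouped by project and symbols for the treatment group. The first identifier takes 68.1% to 92.6% in the project of the saline 16 C rats and 0.0056% to 36.9% in another.

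The summed Rps20 symbol had 272.8, 589 and 1833 CPM in the lowest, median and highest saline 39 C rat, 284.6, 459.9 and 632 CPM in AMPH 16 C rats and 536 to 752 CPM in saline 16 C rats. The sum was higher in saline 39 C than in AMPH 16 C rats (0.67, log2, SE 0.213, edgeR adjusted p = 0.0154), whereas neither identifier alone was called. Rpl12, a protein at the base of the stalk, was split as well, with 8.15% to 34.4% of its counts in ENSRNOG00000028993, and this split varied between rats of 1 project about as widely (8.15% to 33.4% in the project of the saline 16 C rats). Its sum differed by 0.67 (log2, SE 0.21, edgeR adjusted p = 0.0138) in the same comparison. Both identifiers of Rps19 had identical counts in every rat, so they were one measurement listed under 2 names. Rpl34 fell to at least 99.2% in 1 identifier. With the counts of each symbol summed, 34 of 87 members were higher and 0 lower in saline 39 C than in AMPH 16 C rats, against 17.7% and 13.5% of all genes.

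Relatives of core proteins and a binding partner that the symbol rule also takes were not called when all kept rats were used. Rpl22l1, the paralog that can stand in for Rpl22, had differences of 0.07 (log2, edgeR adjusted p = 0.757) against AMPH 16 C and -0.26 (adjusted p = 0.394) against saline 16 C rats. Rps27l, Rpl3l, Rpl7l1, Rpl36al, Rpl10l and the Rps19 binding protein gene Rps19bp1 were not called in the 3 comparisons between the hot and cool groups either, although Rpl7l1 was called without the 5 hot rats, as given above. Their differences between saline 39 C and AMPH 16 C rats ran from -0.07 in Rpl36al to 0.51 in Rpl3l.

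Other genes of translation whose mRNAs carry a TOP motif gave a mixed picture. Of 18 tested, 5 were higher and 1 lower in saline 39 C than in AMPH 16 C rats, and 0 were called against saline 16 C rats or between the cool groups (edgeR). Of all genes, 17.7% were higher and 13.5% lower in the first of these. Tpt1, an abundant TOP mRNA for a growth-related protein, rose by 1.03 (log2, adjusted p = 0.00486). Eef2, the elongation factor of translocation, rose by 0.61 (adjusted p = 0.00498). Pabpc1, the poly(A) binding protein, fell by 0.49 (adjusted p = 0.00998). With the project as a covariate 0 of the 18 were called, against 7.22% higher and 7.09% lower of all genes. Without the 5 hot rats 1 was higher and 1 lower, against 17.6% and 11.8% of all genes. These were Eef2 (0.62, adjusted p = 0.00338) and Pabpc1 (-0.57, adjusted p = 0.00679).

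Of 8 regulators of TOP translation, 2 were higher and 2 lower in saline 39 C than in AMPH 16 C rats (17.7% and 13.5% of all genes), 0 were higher and 1 lower than in saline 16 C rats (12.4% and 9.91% of all genes), and 0 were called between the cool groups (edgeR). Eif4ebp1, a repressor of cap-dependent translation that mTOR switches off, had 21.6, 36.4 and 80.0 CPM in the lowest, median and highest saline 39 C rat and 47.1, 70.6 and 91.3 CPM in AMPH 16 C rats. It was lower in the hot rats by 0.83 (log2 difference -0.83, SE 0.17, edgeR adjusted p = 0.000339), with -1.03 (adjusted p = 4.97e-05) without the 5 hot rats and -0.68 (adjusted p = 0.0131) with the project. Against the saline 16 C rats, which had 66.1 to 102.6 CPM, the difference was -1.03 (SE 0.22, edgeR adjusted p = 0.00112), and with the project it was -0.89 (adjusted p = 0.103). Of the hot rats, all but 1 lay below every saline 16 C rat, and those with the highest values overlapped the AMPH 16 C rats. The saline 22.5 C rats had 18.6, 19.9, 59.2 and 30.1 CPM of Eif4ebp1, within or below the range of the hot rats. Summed neutrophil markers were also highest in the cool groups, with medians of 14605 and 20423 CPM against 6825 CPM in saline 39 C and 4439 CPM in saline 22.5 C rats. S100a8, S100a9, Cxcr2, Camp and Mmp8 went the same way. Csf3r did not, with medians of 834 CPM in AMPH 16 C, 731 CPM in saline 16 C and 819 CPM in saline 39 C rats. Nor did Ngp, with 9.34, 5.95 and 12.7 CPM in these groups. The part of neutrophils in this result was not tested. Larp1, which binds the TOP motif, was higher in saline 39 C than in AMPH 16 C rats (0.52, adjusted p = 0.00268), as was the S6 kinase gene Rps6kb2 (0.82, adjusted p = 0.0013). Without the 5 hot rats they differed by 0.70 and 0.51, and with the project these were 0.46 (adjusted p = 0.0232) and 0.57 (adjusted p = 0.047). Eif4ebp2, a relative of Eif4ebp1, was the other regulator called lower (-0.37, adjusted p = 0.0234).

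Of 22 genes of ribosome biogenesis, 6 were higher and 0 lower in saline 39 C than in AMPH 16 C rats (17.7% and 13.5% of all genes), and 0 were called in the other comparisons with saline 16 C rats (edgeR). Against saline 22.5 C rats the direction was the opposite, with 0 higher and 5 lower (14.7% and 15.6% of all genes), a median of -0.26 (log2) and 18 of 22 below 0. Ubtf, a transcription factor of the rRNA genes, rose by 0.53 (log2, SE 0.0978, adjusted p = 8.64e-05), and Nop2, an rRNA methyltransferase, by 0.65 (adjusted p = 0.000517). Without the 5 hot rats they differed by 0.62 and 0.81, and with the project by 0.46 (adjusted p = 0.00074) and 0.51 (adjusted p = 0.00785). With counts scaled to the library total, 0 of the 22 were called in either direction. Of 77 mitochondrial ribosomal protein genes, 9 were higher and 9 lower in saline 39 C than in AMPH 16 C rats (17.7% and 13.5% of all genes), and 0 were higher and 14 lower than in saline 16 C rats (12.4% and 9.91%). Without the 5 hot rats these counts were 6 higher and 11 lower (17.6% and 11.8% of all genes), and 1 higher and 12 lower (14.1% and 8.59%). Among those lower in both, Mrps6 had a difference of -1.19 (log2, adjusted p = 0.000411) against AMPH 16 C rats and of -1.18 (adjusted p = 0.0052) with the project.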

How the data were processed

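Whole-blood RNA-seq of 42 rats in 4 groups was used (16 saline 39 C, 15 AMPH 16 C, 5 saline 16 C and 6 saline 22.5 C), of 64 rats with files. The AMPH 22.5 C rats were added only to the fits over 5 groups with the project as a covariate. The deposited values are expected counts per gene of 1 rat, which the authors made with RSEM. The submitters' processing notes name CASAVA 1.8.2, Bowtie 0.12.9, RSEM 1.2.0 and the rn5 genome. Expected counts let reads that match several copies be shared between them. Here the counts were rounded to whole numbers, and genes listed in the files of all 4 groups were kept.

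Rats with at most 5000 Mb counts entered 1 edgeR 4.0.16 fit (R 4.3.3, limma 3.58.1) over the 4 groups, with TMM factors, a filter that asked for 10 or more counts of a gene in 4 or more rats, the quasi-likelihood test and Benjamini-Hochberg adjustment over 13404 genes, called below 0.05. A log2 difference carries its SE, and CPM are normalized with TMM. Alternatives used DESeq2 1.42.0. The fits were tested on simulated data. Summaries and plots used Python 3.11.15 with numpy 2.4.6, pandas 2.3.3 and matplotlib 3.10.9. Each label gives a separate rat. Rats with the same replicate number did not vary together (mean correlation of their deviations 0.016, -0.041 and -0.003 in the comparisons of saline 39 C with saline 16 C, AMPH 16 C with saline 16 C, and saline 39 C with AMPH 16 C), so the numbers did not pair them.

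Named were, per comparison, up to 10 called members with the largest change (among those whose mean reached 100 normalized counts in 1 of the groups), members with a role of their own, symbols with several identifiers, and the member with the highest and lowest mean in each group. Rpl36-ps3, Rps26, Rps2, Rpl36a, Rps7, Rpl10 and the genes named from the other lists were chosen after their values were seen. Some genes that the rule names are not reported here. The members and the lists were chosen with earlier results of these data known. Start windows came from RefSeq (GRCr8) and were matched by symbol. The depth of a rat sets the counting error only. Gene lengths of the build were not used here, so a ranking of members by mean normalized count is not a ranking of transcript levels.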

Additional observations from a re-analysis of the deposited data

Results flagged for a closer look

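In groups of 4 or 5 rats, 4 of 139 values (2.88%) had a lowest or highest rat set far apart from the others, where chance gives about 1 in 20. Saline 16 C rat 5 had 7.42 CPM of Rpl9:ENSRNOG00000030476, a copy of a large subunit gene, with a gap to the next rat of 0.99 of the range of the group. Saline 16 C rat 3 had 604 CPM of Rps20:ENSRNOG00000008555, with a gap of 0.76 of the range. Among the saline 22.5 C rats, rat 18 had 0 CPM of RPL37:ENSRNOG00000033803 and rat 17 had 0 CPM of RPS4X:ENSRNOG00000003201, both low-count copies, with gaps of 0.858 and 0.83 of the range. All 4 values belonged to symbols with more than 1 identifier, as did many of the named identifiers.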

How the results depend on the processing

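The counts of members called differed between fits, and the cause was not tested. Where the share of all genes in a fit is not given above, its count is not read as a result about the members. The fit with the project also holds the AMPH 22.5 C rats. The fits with total-count scaling, scaling to the members, summed symbols, rats without low factors and unblocked rats were chosen after seeing the data. Saline 39 C against saline 16 C gave 3 higher and 0 lower. Higher became 8 with DESeq2, 6 scaled to the members, 1 with that and the project, 1 with symbols summed, 1 without low factors, and 0 with the project. Lower became 1 with the project, 12 with total counts, and 6 without low factors. AMPH 16 C against saline 16 C gave 0 in these fits except for the unblocked rats given below. Saline 39 C against AMPH 16 C gave 36 higher and 0 lower. Higher became 17 with rats above the Mb limit, 3 with total counts, 6 scaled to the members, 1 without low factors, and 0 with the project or in shared projects under either scaling. Lower became 3 with total counts, 10 scaled to the members and 3 without low factors. Saline 39 C against saline 22.5 C gave 23 higher and 1 lower. Higher became 38 with DESeq2, 3 without low factors, 1 with only these 2 groups, and 0 with the project under either scaling or total counts. Lower became 4 with rats above the Mb limit, 45 with total counts, 14 scaled to the members, 4 without low factors, and 0 with the project under either scaling or only 2 groups. The mean share in saline 16 C rats was 7.89% outside hemoglobin genes.

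The fit with the replicate number as a block, over rats whose number occurs in both groups, gave 0 higher and 0 lower for both comparisons with saline 16 C and 10 higher and 0 lower for saline 39 C against AMPH 16 C. The same rats without the block gave 0 higher and 3 lower, 0 higher and 3 lower, and 31 higher and 0 lower. Shares of all genes are not given for these fits, so their counts are not read as a result about the members. Of the rats, 0, 1 and 4 correlated best with their own number.

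Leaving out 1 rat at a time gave 2 to 5 higher and 0 to 2 lower for saline 39 C against saline 16 C, 0 for AMPH 16 C against saline 16 C, 21 to 46 higher and 0 to 1 lower for saline 39 C against AMPH 16 C, 3 to 31 higher and 0 to 2 lower for saline 39 C against saline 22.5 C, and 0 between saline 16 C and saline 22.5 C. Without saline 39 C rat 8, 2 were lower against saline 16 C and the median was 0.12. Without saline 39 C rat 2, 5 were higher. These counts have no share of all genes beside them and are not read as a result about the members. Without rat 8, 21 were higher and 1 lower against AMPH 16 C.

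Some single differences changed sign. Against saline 16 C, RPS29:ENSRNOG00000028939 was -0.48 with the project, -0.20 with that scaled to the members, -1.06 in shared projects and -0.33 with that scaled to the members. Rps20:ENSRNOG00000029627 was -0.27, -0.042, -2.22 and -1.46 in the same order, and Rpl36-ps3:ENSRNOG00000029560 -2.06 and -2.21 in the first 2. Scaled to the members in shared projects, Mrps24:ENSRNOG00000011979 was 0.25, Mrps34:ENSRNOG00000015479 0.036 and Mrps6:ENSRNOG00000002010 0.34. Against AMPH 16 C, RPL39:ENSRNOG00000050074 was -0.0095 and Rpl39:ENSRNOG00000043348 -0.0032 in that fit, and Rpl37a:ENSRNOG00000028883 was -0.077 and Rps29:ENSRNOG00000004196 -0.072 without low factors. With 5 and 4 rats, the saline 16 C and saline 22.5 C groups limit what could be called.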
